A study of Homo sapiens with 21 samples.

Results

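hTERT-HPNE cells 4 h after 300 µM H2O2 were compared with untreated cells of the same line, in 3 libraries each, 6 of the 21 libraries of the series. The untreated cells are labelled as 0 h, so H2O2 and 4 h of further culture cannot be told apart in this comparison. The comparison ran over all genes: of 23368 listed, 3674 stood at 0 throughout and 19694 were tested. hTERT-HPNE is a pancreatic line that was immortalized with telomerase and is not transformed, so the data describe a single line. Both groups were grown with 5% serum, EGF at 10 ng/ml, puromycin and glucose, and the treated cells received H2O2 in fresh medium, and whether the untreated cells had their medium changed is not stated. The series also holds cells 8 h and 24 h after H2O2 and cells 4, 8 and 24 h after 400 ng/ml neocarzinostatin (NCS), which cuts both strands of DNA. The 8 h H2O2 group and the 4 h NCS group are used here for direct comparison. Values are rLog values, which are log2-scaled, normalised read counts whose differences are shrunk, most of all for genes with few reads. A difference of 1 is therefore a 2-fold change on that scale, and the depth of the libraries is unknown.

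Hydrogen peroxide is a small oxidant that crosses membranes and reacts with thiols, iron and DNA. Cells read it through several routes. KEAP1 releases the transcription factor NRF2, which switches on glutathione, thioredoxin and haem enzymes. Stress kinases of the MAPK family switch on the early-response genes, among them the FOS, JUN and ATF subunits that pair into the AP-1 factors. Kinases that phosphorylate eIF2α slow translation and raise ATF4, the factor of the integrated stress response. Misfolded proteins activate HSF1, freed zinc activates MTF1, and damaged DNA activates p53. Genes of each route were listed by hand, and the members past the adjusted p were counted. The shares of a list are set beside the 26.2% of all tested genes that were higher and the 19.7% that were lower. Those shares change with the level of the genes. They were 15.8% higher and 34% lower for genes averaging 7 to 9 across the 21 libraries. From 9 to 11 they were 19% and 38.7%. The lists were not matched for level.

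At 4 h, 129 genes (0.655% of the 19694 tested) were called higher and 8 (0.0406%) were called lower than in untreated cells, at an absolute log2 difference over 1 and a limma adjusted p under 0.05. Without the limit on size, 5165 genes (26.2%) were higher and 3874 (19.7%) were lower. That balance rested on the scaling of the libraries, since 4118 were higher and 4806 lower with library medians aligned, and 4162 and 4754 after quantile normalization. The 3 H2O2 libraries of all 129 and of all 8 called genes lay outside the range of the 3 untreated libraries, which over all genes was true of 27.2% upwards and 22.3% downwards. The genes were called from these same libraries, so their separation is a description. The median difference over all tested genes was 0.0038. The 6 libraries had medians between 7.151 and 7.176, and libraries of different groups were farther apart (Euclidean distance over all tested genes of 33.4 to 34.2) than libraries of the same group (10.5 to 11.2).

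Called rises were larger and more numerous than called falls, and they reached lower in the range of values. Of the 129 genes called higher, 76 averaged under 7 across the 21 libraries and 43 under 5, whereas the 8 genes called lower had means between 7 and 11. Among the 2640 genes with a mean value from 0 to 3, 44.5% passed the adjusted p upwards and 0.644% downwards, with a median difference of 0.052. Among the 4482 genes with a mean from 9 to 11, 19% passed upwards and 38.7% downwards, with a median difference of -0.044. The number of genes past the adjusted p alone therefore differed with the level of the genes.

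**Figure D1:**
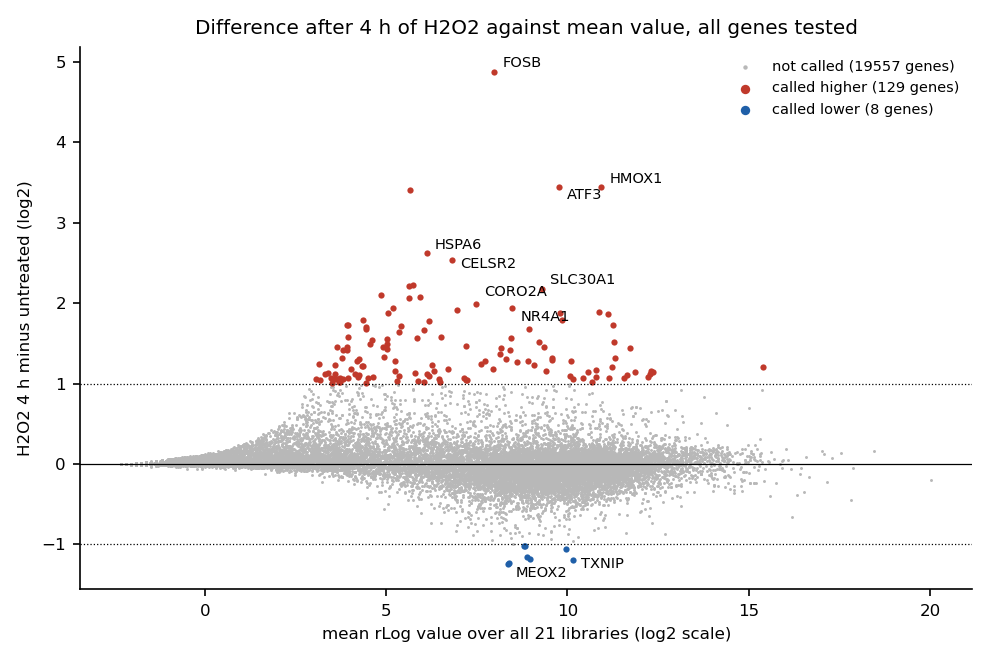
Difference in rLog value between H2O2 4 h and untreated cells (vertical axis, log2) against the mean rLog value over all 21 libraries (horizontal axis, log2), with 1 point for each of the 19694 genes tested; dotted lines mark differences of -1 and 1. The 129 genes called higher (red) spread from low to high mean values, with FOSB at 4.88 far above the rest, and the 8 called lower (blue) lie just under -1.

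FOSB had the largest difference of all genes. FOSB is a FOS-family subunit of AP-1 that is normally made for a short time after a stimulus. Its values were 6.95, 6.88 and 6.95 in untreated cells and 12.16, 11.64 and 11.62 after H2O2, a difference of 4.88 ± 0.11 (SE, adjusted p = 5.39e-16, limma), or 29.4-fold on the rLog scale. ATF3, a factor induced by many stresses that pairs with AP-1 subunits, stood at 8.24, 8.22 and 8.19 in untreated cells and at 11.68, 11.66 and 11.65 after H2O2. Its difference was 3.45 ± 0.05 (adjusted p = 2.53e-18, limma), and its replicates were almost level in both groups. With 3 libraries against 3, a two-sided exact permutation test of a single gene cannot give a p below 0.1, which all non-overlapping genes reach.

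Most AP-1 subunits rose, with FOSB and JUNB ahead of FOS and JUN. Of 16 subunits tested, 14 were higher, none was lower and 6 were called, with a median difference of 0.76, against 26.2% higher, 19.7% lower and a median of 0.0038 over all genes. JUNB, a JUN-family partner of FOSB, moved from 8.74, 8.88 and 8.77 to 10.46, 10.25 and 10.22, a difference of 1.51. FOS rose less, by 0.76, from 6.82, 6.93 and 6.89 to 7.82, 7.58 and 7.53. FOSL1 was already at 12.7 in untreated cells and rose by only 0.14. The small MAF proteins MAFG and MAFK, which lack an activation domain and pair with NRF2 as well as with each other, rose by 1.08 and 1.09. JUN itself did not pass the test, with a difference of -0.01.

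Most early-response genes rose. Of 36 tested, 27 were higher (75%, against 26.2% of all genes) and 11 were called higher, with a median difference of 0.36. The 7 that were lower (19.4%) were near the 19.7% of all genes. The orphan nuclear receptor NR4A1 rose from 7.86, 7.99 and 7.90 to 9.92, 9.82 and 9.81 (1.94 ± 0.06, adjusted p = 8.58e-14, limma). SIK1, a salt-inducible kinase, rose by 1.91, BHLHE40, a repressor that acts on clock genes, by 1.89, and BTG2, an antiproliferative cofactor of mRNA deadenylation, by 1.68. EGR3 rose by 1.02. EGR1, a zinc finger factor induced by growth factors, went the other way against untreated cells. Its values moved from 11.21, 11.43 and 11.13 to 10.97, 10.71 and 10.80, a fall of 0.43 on the log2 scale (adjusted p = 0.000195, limma). EGR1 was lower still at 4 h of NCS, with a difference from untreated cells of -1.35 (adjusted p = 8.94e-10, limma). Directly compared, EGR1 was 0.92 higher at 4 h of H2O2 than at 4 h of NCS (adjusted p = 2.7e-08, limma). Of the 36 genes, 25 were higher than at 4 h of NCS and 7 were lower. KLF2 fell from 8.75, 8.998 and 8.71 in untreated cells to 8.06, 8.04 and 8.01, by 0.79, and differed from 4 h of NCS by -0.84. ZFP36, which binds AU-rich elements and speeds the decay of early-response mRNAs, fell by 0.34, and its relative ZFP36L2 fell by 0.31. The genes that fell had untreated and treated libraries that did not overlap, like those that rose. Over all genes the libraries did not overlap for 22.3% downwards and 27.2% upwards. The members named here had passed the test in the same libraries, so their separation is a description.

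MAPK phosphatases and feedback genes mostly rose as well. Of 23 tested, 15 were higher (65.2%), 3 were lower (13%, against 19.7% of all genes) and 4 were called, with a median of 0.40. GADD45A, which activates a kinase upstream of the stress MAPKs and is a p53 target too, rose by 1.44, and GADD45B by 1.11. DUSP8, a phosphatase that prefers the stress kinases JNK and p38, rose from 5.92, 5.97 and 6.14 to 7.16, 7.19 and 7.17. DUSP6, the phosphatase that prefers ERK, fell from 9.21, 9.12 and 9.11 to 8.28, 8.23 and 8.37, a fall of 0.85 (adjusted p = 4.14e-11, limma). The ERK pathway inhibitor SPRED1 fell by 0.42. ERRFI1, an inhibitor of the EGF receptor, rose by 1.16 from 12.1 in each untreated library to between 13.24 and 13.25. Of 9 genes of the EGF receptor and its ligands, 3 were higher and none lower, and those 33.3% lie near the 26.2% of all genes. HBEGF, a membrane-bound ligand, was at 10.88 in all 3 untreated libraries and at 12.34, 12.40 and 12.47 after H2O2 (1.52 ± 0.04, adjusted p = 2.24e-15, limma). EREG and AREG rose by 0.56 and 0.34. The cells had EGF in their medium throughout.

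**Figure D2:**
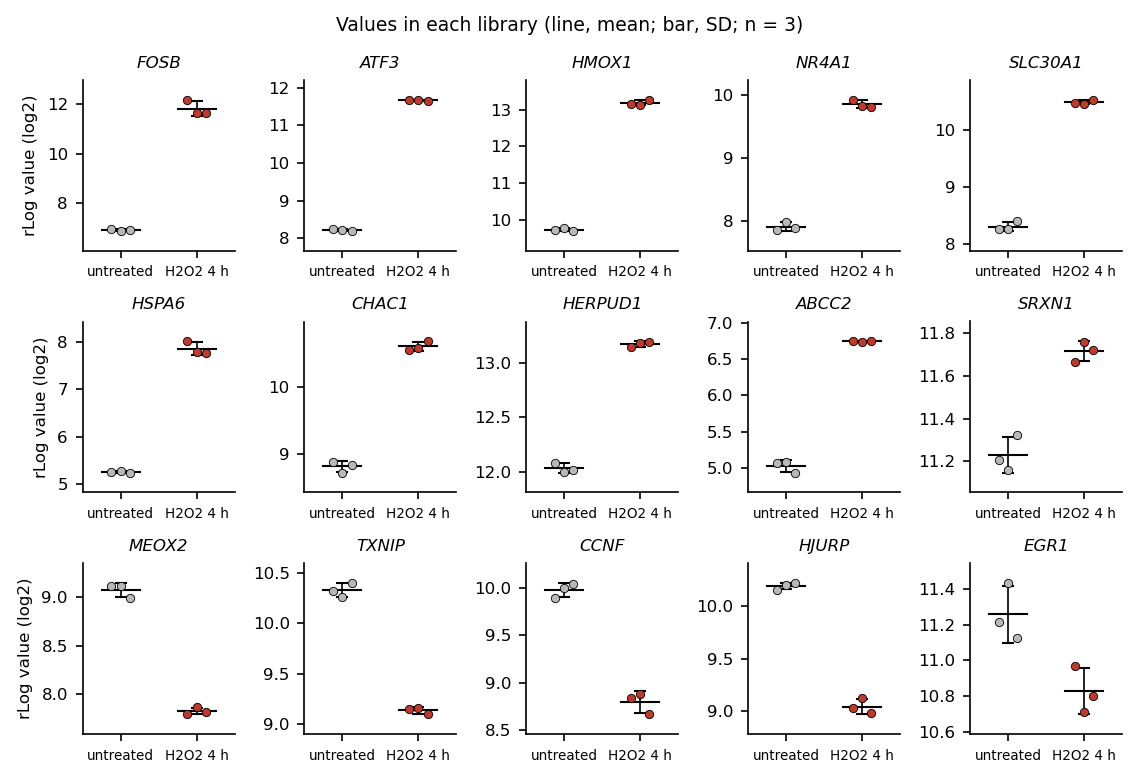
rLog values (vertical axes, log2, each panel with its own range) of 15 genes in the 3 untreated libraries (grey) and the 3 libraries after 4 h of H2O2 (red); lines show means and bars show SD. In every panel the groups are apart, by 4.88 for FOSB and by 0.43, downwards, for EGR1.

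HMOX1, which breaks down haem, had the third largest rise of all. Its values were 9.73, 9.79 and 9.71 in untreated cells and 13.16, 13.13 and 13.27 after H2O2 (3.44 ± 0.05, adjusted p = 3.69e-18, limma), 10.9-fold on the rLog scale. Most other NRF2 targets moved less. Of 33 tested, HMOX1 included, 21 were higher (63.6%) and 1 was lower (3.03%), but only 3 were called, and the median difference was 0.13. ABCC2, an export pump for glutathione conjugates, rose from 5.07, 5.09 and 4.93 to 6.74, 6.74 and 6.75 (1.71). The cystine transporter SLC7A11 rose by 0.68, the glutathione synthesis subunit GCLM by 0.50, SRXN1, which repairs overoxidized peroxiredoxins, by 0.49, and thioredoxin reductase TXNRD1 by 0.33. NQO1, a quinone reductase often used to report NRF2 activity, rose by 0.10, and the catalytic glutathione synthesis subunit GCLC had a difference of 0.02 that did not pass. ABCC4, also a pump, fell by 0.19.

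The enzymes that consume peroxide moved little. Of 24 peroxide and superoxide enzymes, 14 were higher (58.3%) and 1 was lower (4.17%), none was called, and the largest difference was the 0.33 of TXNRD1. Catalase (CAT), which splits H2O2, was the member that fell, from 9.51, 9.62 and 9.56 to 9.41, 9.44 and 9.40, by 0.14 (adjusted p = 0.00264, limma). The superoxide dismutases SOD1 and SOD2 rose by 0.12 and 0.10 (SOD2 did not pass without untreated replicate 1 or 2 or without H2O2 replicate 1 or 3), and the glutathione peroxidases GPX1 and GPX4 by 0.19 and 0.20. Of base excision repair genes, whose products remove oxidized bases, 3 of 19 were higher (15.8%) and 7 were lower (36.8%). Their median was -0.035, 0.0076 after quantile normalization, and between -0.0505 and -0.0088 with single libraries left out, nearest 0 without H2O2 replicate 3. OGG1 and MUTYH, which act on 8-oxoguanine and the base mispaired with it, had differences of 0.04 and -0.03 that did not pass. NEIL1 rose by 0.59 and NEIL3 fell by 0.56.

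The integrated stress response had the largest share of members higher among the 31 lists. Of 40 genes tested, 37 were higher (92.5%), none was lower and 10 were called, with a median difference of 0.58. ATF4, whose mRNA is translated when eIF2α is phosphorylated, rose from 12.84, 12.75 and 12.78 to 13.69, 13.69 and 13.73 (0.92 ± 0.06, adjusted p = 4.73e-10, limma). Several of its targets rose further. SESN2, a sestrin that restrains mTORC1, went from 9.87, 9.89 and 9.85 to 11.71, 11.73 and 11.77 (1.87). CHAC1, which degrades glutathione, went from 8.88, 8.72 and 8.84 to 10.56, 10.57 and 10.68 (1.79 ± 0.10, adjusted p = 1.07e-10, limma). GDF15, a secreted stress hormone, rose by 1.73. Amino acid genes rose with smaller differences, the glycine transporter SLC6A9 by 0.53 and the asparagine synthetase ASNS by 0.63. ATF5, also a factor of this response, did not pass the test, with a difference of -0.09.

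The unfolded protein response of the endoplasmic reticulum rose in part. Of 23 genes, 20 were higher (87%), 1 was lower (4.35%) and 1 was called, with a median of 0.18. HERPUD1, which serves degradation of proteins from the endoplasmic reticulum, rose from 12.08, 11.999 and 12.02 to 13.14, 13.19 and 13.19 (1.14). The chaperone HSPA5 rose by 0.92, its cofactor DNAJB9 by 0.82 and the stress sensor ERN1 by 0.72, while the chaperones HSP90B1 and PDIA3 rose by 0.12 and 0.13. The sensor ATF6 was the member that fell, by 0.12.

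Of 25 heat shock chaperone genes, 12 were higher (48%, against 26.2% of all genes), 2 were lower (8%, against 19.7%) and 1 was called, with a median of 0.09. The called member was HSPA6, an inducible HSP70 that is scarcely made in unstressed cells, with values of 5.25, 5.26 and 5.23 in untreated cells and 8.02, 7.79 and 7.78 after H2O2 (2.62 ± 0.13, adjusted p = 2.08e-11, limma). The main inducible HSP70 genes HSPA1A and HSPA1B rose by 0.48 and 0.71. These genes have near-identical copies, HSPA6 with the pseudogene HSPA7 and HSPA1A with HSPA1B, so how the reads were shared between copies is uncertain. HSPB8, a small heat shock protein, rose by 0.66. The constitutive HSPA8 fell from 15.94, 15.98 and 15.96 to 15.71, 15.76 and 15.70, by 0.23.

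The zinc genes were led by a single transporter. SLC30A1, which exports zinc across the plasma membrane, rose from 8.26, 8.26 and 8.40 to 10.48, 10.46 and 10.53 (2.18 ± 0.05, adjusted p = 1.82e-15, limma), 4.54-fold on the rLog scale. The metallothioneins, small proteins that bind zinc and share the factor MTF1 with SLC30A1, rose little or did not pass. MT1X rose by 0.45, with values of 8.84, 9.003 and 9.002 against 9.42, 9.27 and 9.52. MT1M rose by 0.47. MT1E had a difference of 0.14 (adjusted p = 0.0563, limma) and MT2A of 0.09, and neither passed, though MT1E passed with library medians aligned (adjusted p = 0.038, limma), in the fit of the 2 groups alone (0.0385) and without H2O2 replicate 2 (0.0324). Of the 13 genes of this list, 7 were higher (53.8%) and none was lower, with a median of 0.14 that was 0.0843 without untreated replicate 2 and 0.085 after quantile normalization. Metallothionein genes are near-identical, so how the reads were shared among them is uncertain.

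Promoters of some of these genes are shown for the elements that the named factors bind, so that the rises can be set beside the sequence. More promoters were searched, and only promoters that held the element named for them are printed. RefSeq start sites on GRCh38.p14 gave a window of 250 bases before to 50 after the start for 13966 of the tested genes, after 12579 were matched by symbol and 1399 by an older symbol and each promoter was used once. Of the 129 genes called higher, 84 had a promoter. Capitals mark, on either strand, the element named for each promoter and nothing else. For SLC30A1 (chr1:211579112-211579411, minus strand) and MT2A (chr16:56608334-56608633, plus strand) they mark the metal response element (TGCACNC or TGCGCNC) bound by MTF1:
SLC30A1: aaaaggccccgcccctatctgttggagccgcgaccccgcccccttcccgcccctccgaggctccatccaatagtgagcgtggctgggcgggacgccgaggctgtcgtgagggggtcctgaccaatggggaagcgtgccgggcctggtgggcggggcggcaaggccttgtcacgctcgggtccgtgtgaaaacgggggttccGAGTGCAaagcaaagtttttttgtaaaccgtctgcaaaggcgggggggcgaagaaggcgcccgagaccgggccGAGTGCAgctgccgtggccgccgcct
MT2A: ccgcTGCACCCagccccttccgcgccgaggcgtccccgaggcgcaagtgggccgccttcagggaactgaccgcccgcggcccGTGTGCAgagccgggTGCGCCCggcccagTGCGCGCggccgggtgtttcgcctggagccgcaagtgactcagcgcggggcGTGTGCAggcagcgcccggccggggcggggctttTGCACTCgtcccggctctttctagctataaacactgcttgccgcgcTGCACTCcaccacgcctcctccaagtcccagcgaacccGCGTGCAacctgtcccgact
For CHAC1 (chr15:40953221-40953520, plus strand) and ASNS (chr7:97872359-97872658, minus strand) they mark the ATF4 composite element (TGATGNAA):
CHAC1: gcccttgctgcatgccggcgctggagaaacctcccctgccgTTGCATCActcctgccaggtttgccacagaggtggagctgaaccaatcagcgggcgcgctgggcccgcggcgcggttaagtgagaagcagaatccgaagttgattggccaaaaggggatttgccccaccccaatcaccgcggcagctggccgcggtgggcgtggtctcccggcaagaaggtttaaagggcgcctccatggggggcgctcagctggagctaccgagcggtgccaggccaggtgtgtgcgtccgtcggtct
ASNS: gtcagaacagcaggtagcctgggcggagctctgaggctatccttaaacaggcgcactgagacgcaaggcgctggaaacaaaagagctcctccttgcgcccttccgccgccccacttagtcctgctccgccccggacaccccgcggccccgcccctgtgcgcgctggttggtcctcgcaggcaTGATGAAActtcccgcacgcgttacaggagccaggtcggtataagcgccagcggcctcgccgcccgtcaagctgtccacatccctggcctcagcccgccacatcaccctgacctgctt
For HSPA6 (chr1:161524290-161524589, plus strand) they mark the heat shock element bound by HSF1, which is 3 alternating GAA and TTC units with 2 bases between them:
HSPA6: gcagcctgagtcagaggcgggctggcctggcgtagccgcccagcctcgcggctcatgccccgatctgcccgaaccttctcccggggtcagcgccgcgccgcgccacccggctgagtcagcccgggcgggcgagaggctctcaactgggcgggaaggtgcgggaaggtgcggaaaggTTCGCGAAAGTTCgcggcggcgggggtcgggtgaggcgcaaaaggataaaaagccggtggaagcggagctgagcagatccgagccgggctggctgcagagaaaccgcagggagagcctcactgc
For GCLM (chr1:93909381-93909680, minus strand) they mark the antioxidant response element (TGACNNNGC) bound by NRF2:
GCLM: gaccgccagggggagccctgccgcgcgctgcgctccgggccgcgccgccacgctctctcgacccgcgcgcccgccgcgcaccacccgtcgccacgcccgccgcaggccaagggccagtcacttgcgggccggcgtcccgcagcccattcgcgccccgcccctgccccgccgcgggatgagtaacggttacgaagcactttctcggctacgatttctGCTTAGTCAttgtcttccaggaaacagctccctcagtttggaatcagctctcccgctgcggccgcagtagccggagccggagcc

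SLC30A1 and MT2A differed in the number of elements and in the rise. MT2A had 8 metal response elements in this window and a difference of 0.09 that did not pass, whereas SLC30A1 had 2, at 49 bases before and 24 after the start, and a difference of 2.18. Metal response elements were present in 5 of 6 promoters of the zinc list, in 34.5% of the promoters of genes called higher and in 36.1% of all promoters. The ATF4 composite element lay 209 bases before the start in CHAC1 and 68 before it in ASNS. It was present in 8 of 33 promoters of the integrated stress response list (24.2%, exact 95% interval 11.1 to 42.3) and in 2.21% of all promoters. The heat shock element, 74 bases before the start of HSPA6, was present in 5 of 23 heat shock promoters (21.7%, exact 95% interval 7.46 to 43.7) and in 0.422% of all promoters, although most genes of that list moved little. The antioxidant response element lay 34 bases before the start of GCLM and was present in 7 of 25 NRF2 target promoters (28%, exact 95% interval 12.1 to 49.4), in 11.9% of the promoters of genes called higher and in 14.6% of all promoters. That 28% was not particular to NRF2 targets. In the other lists searched the share ran from 10.7% (early-response genes) to 50% (zinc), with 30.3% for the integrated stress response. The lists were drawn up from known targets, so these shares describe the lists. Some genes that rose held no match in this window to the element searched for them. SESN2 had no ATF4 composite element, HSPA1A no heat shock element, and SRXN1 and MAFG no antioxidant response element.

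Over the genes called higher as a whole, the AP-1 site (TGANTCA) was present in 11 of 84 promoters (13.1%, exact 95% interval 6.72 to 22.2) against 5.35% of all promoters. In a window that began 100 bases before the start, the shares were 3.57% and 2.59%. The CRE (TGACGTCA) was present in 4.76% against 2.79%, the E-box (CACGTG) in 14.3% against 9.29%, and the CArG box, CC and GG around 6 A or T, in 1.19% of both. In MT2A an AP-1 match and an antioxidant response element match begin at the same base, 104 before the start.

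Targets of p53 rose together. Of 37 tested, 33 were higher (89.2%), 1 was lower (2.7%) and 9 were called, with a median of 0.52. The cell cycle inhibitor CDKN1A rose from 14.13, 14.14 and 14.08 to 15.31, 15.30 and 15.36 (1.21 ± 0.07, adjusted p = 3.31e-10, limma). MDM2, the ligase that degrades p53, rose from 11.72, 11.75 and 11.63 to 12.50, 12.46 and 12.51 (0.79). Among the BCL2 family, 10 of 17 were higher (58.8%) and none was lower, and the 2 called members were the proapoptotic p53 targets BBC3 (1.56) and PMAIP1 (1.15). The antiapoptotic member MCL1 rose by 0.30. ZMAT3, a p53-induced RNA-binding protein, was the target that fell, from 11.48, 11.42 and 11.31 to 11.15, 11.06 and 11.18, by 0.27. SESN2, GDF15, BTG2 and GADD45A stand on this list and also on the integrated stress response, early-response or MAPK lists.

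NF-kB targets moved little beyond a few cytokines. Of 27 targets and cytokines, 11 were higher (40.7%) and 4 were lower (14.8%), with a median of 0.09 that was 0.00895 after quantile normalization. The called members were LIF, a cytokine of the IL-6 family (1.88), PTGS2, which makes prostaglandins (1.23), the chemokine IL8 (1.16) and IL11 (1.06). The pathway's own feedback genes NFKBIA and NFKB2 rose by 0.14 and 0.17, and the subunits NFKB1 and REL fell by 0.10 and 0.24, of which NFKB1 did not pass without untreated replicate 1 or without H2O2 replicate 2 or 3. LIF, which is on the p53 list too, stood at 8.94, 8.90 and 8.92 in untreated cells and at 10.81, 10.75 and 10.85 after H2O2.

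Of the hypoxia-type genes, 13 of 19 were higher (68.4%) and 2 were lower (10.5%), with a median of 0.21. VEGFA, an angiogenic growth factor that ATF4 can also raise, went from 9.62, 9.49 and 9.43 to 10.82, 10.79 and 10.78 (1.29 ± 0.06, adjusted p = 3.37e-12, limma). The glycolytic genes PFKFB3, HK2 and SLC2A3 rose by 0.89, 0.84 and 0.66. ADM, a vasodilator peptide that is a standard hypoxia target, fell by 0.51. Of 20 autophagy genes 11 were higher (55%) and 4 were lower (20%), led by MAP1LC3B (0.60), GABARAPL1 (0.58), SQSTM1 (0.44) and ULK1 (0.43).

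**Figure D3:**
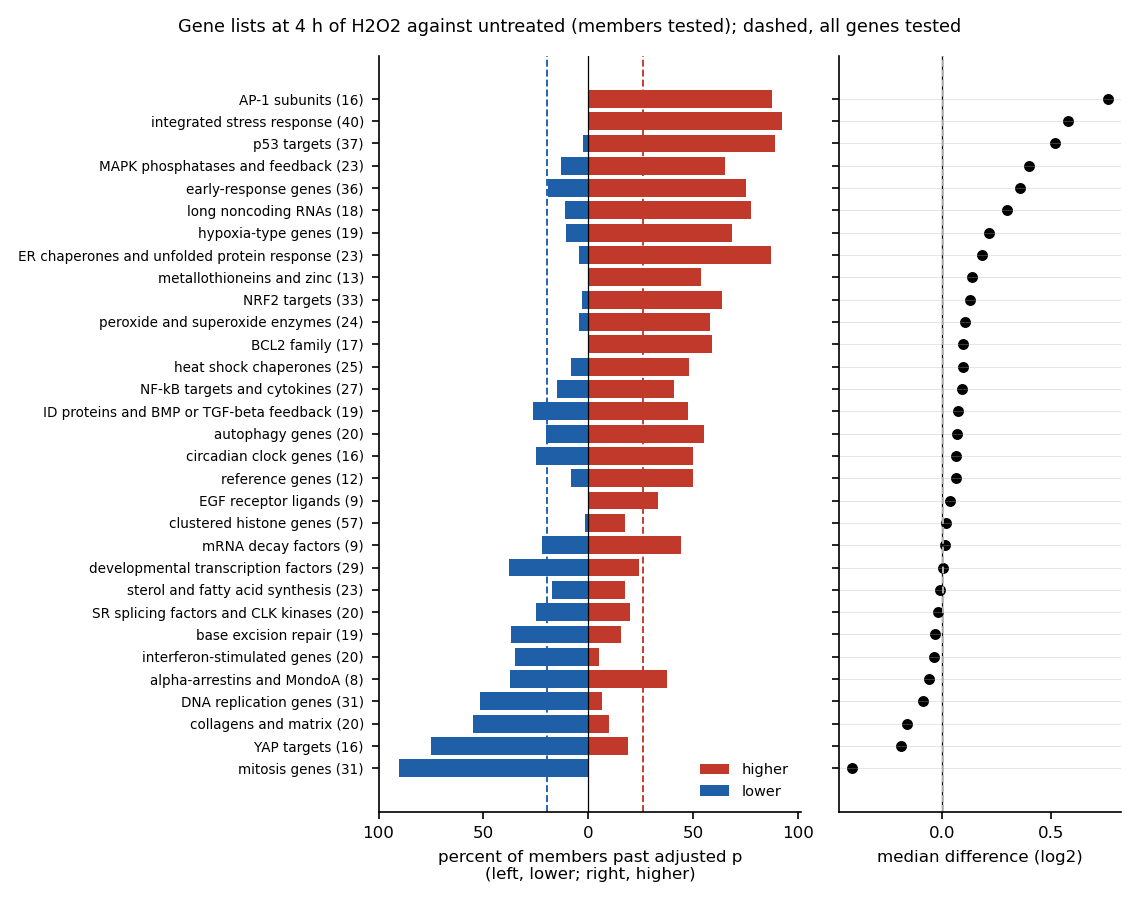
Left, percent of the tested members of each gene list that were higher (red, to the right) or lower (blue, to the left) at 4 h of H2O2 at a limma adjusted p under 0.05, with dashed lines at the 26.2% and 19.7% of all tested genes; right, the median log2 difference of each list. The integrated stress response, p53 target and AP-1 lists have the longest red bars with medians of 0.58, 0.52 and 0.76, and the mitosis list has no red bar and a median of -0.42.

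Genes of mitosis fell. Of 31 tested, none was higher, 28 were lower (90.3%) and 1 was called, with a median of -0.42, against 19.7% lower over all genes. CCNF, the F-box protein cyclin F, fell from 9.89, 10.00 and 10.04 to 8.84, 8.88 and 8.67 (-1.18 ± 0.08, adjusted p = 4.91e-10, limma). MKI67, the proliferation marker Ki-67, fell from 12.89, 12.99 and 12.96 to 12.05, 12.19 and 12.04, by 0.85. The mitotic kinase PLK1 and cyclins CCNB1 and CCNB2 fell by 0.31, 0.39 and 0.25. PLK1 did not pass without untreated replicate 2 or 3 or without H2O2 replicate 3, and CCNB2 did not without untreated replicate 3 or H2O2 replicate 3. In bulk RNA, fewer cells in mitosis and less of these mRNAs per cell cannot be told apart. Of 31 DNA replication genes, 2 were higher (6.45%) and 16 were lower (51.6%), with a median of -0.09. PCNA, the sliding clamp, was one of those that rose, by 0.34, and the licensing factor CDT1 was the other (0.14), though CDT1 lost the test without any of the 6 libraries but untreated replicate 2. ORC1 and GINS1 fell by 0.32 and 0.35, and the helicase subunits MCM2 and MCM3 had differences of -0.09 and -0.08 that did not pass. Clustered histone genes, whose mRNAs mostly lack the poly(A) tail that the library preparation selects, had 10 of 57 higher (17.5%) and 1 lower (1.75%), with a median of 0.016 that was 0.0085 without H2O2 replicate 1 and -0.026 after quantile normalization.

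The 8 genes called lower included other mitotic genes and transcription factors. MEOX2, a homeobox factor, had the largest fall, from 9.12, 9.12 and 8.99 to 7.80, 7.86 and 7.82 (-1.25 ± 0.12, adjusted p = 9.1e-08, limma). IKZF2, a zinc finger factor of the Ikaros family, fell from 8.92, 8.82 and 8.73 to 7.56, 7.65 and 7.58 (-1.23). TXNIP, an arrestin that binds thioredoxin and limits glucose uptake, fell from 10.32, 10.26 and 10.40 to 9.15, 9.16 and 9.10 (-1.19 ± 0.06, adjusted p = 1.74e-11, limma). Its relative ARRDC3 fell by 0.40, while ARRDC1 and ARRDC2 rose by 0.18 and 0.22. HJURP, which loads the centromeric histone, fell by 1.15, the spindle protein ASPM by 1.06 and the kinesin KIF18B by 1.02. Over 29 developmental transcription factors 7 were higher (24.1%) and 11 were lower (37.9%), with TWIST1 lower by 0.56 and FOXC1 higher by 0.78.

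Of 16 YAP targets, 12 were lower (75%) and 3 were higher (18.8%), with a median of -0.19. The secreted matricellular genes CTGF and CYR61 fell by 0.34 and 0.18, with CTGF at 15.14, 15.20 and 15.20 in untreated cells and at 14.84, 14.83 and 14.86 after H2O2. Of 20 collagens and matrix genes, 11 were lower (55%) and 2 were higher (10%), with a median of -0.16 that was -0.0931 after quantile normalization. COL1A1 fell from 17.94, 18.002 and 17.98 to 17.55, 17.53 and 17.51, by 0.44, and the adhesive glycoprotein THBS1 fell by 0.66. Among ID proteins and feedback genes of BMP and TGF-beta, 9 of 19 were higher (47.4%) and 5 were lower (26.3%). The TGF-beta inhibitors SKIL and SMAD7 rose by 0.96 and 0.93, ID1 fell by 0.21, ID3 rose by 0.27, and the BMP inhibitor NOG fell by 0.33.

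The cell type of the line was checked by markers fixed by hand. The mesenchymal markers VIM, FN1 and COL1A1 had untreated means of 17.1, 20.1 and 18. The duct markers KRT19, CFTR and EPCAM had 0.60, -1.34 and -1.77, where the lowest value in any library was -2.313, while KRT18, KRT8 and KRT7 had 11.6, 7.78 and 6.74. The labels name the line as pancreatic without naming a cell type. The acinar markers PRSS1, CELA3A and CELA3B, the islet marker INS and the immune marker CD3E were listed at 0 in every library. The other 5 of 8 acinar, 6 of 7 islet and 5 of 6 immune markers had values that vary, as had all 6 endothelial markers. Of these, 2 acinar, 1 islet, 2 immune and 3 endothelial markers were higher and none was lower, where 26.2% of all tested genes were higher. The levels of the remaining markers are not reported here. Of the duct markers 3 of 10 were higher and none was lower, and of the mesenchymal markers 3 of 9 were higher and 4 were lower.

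Most of the largest rises outside these lists were of genes with low values. Only 45 of the 129 genes called higher belonged to any of the 31 lists, 37 of the 53 with a mean value of at least 7 and 8 of the 76 with a lower mean. The lists were drawn up by hand, and the share of all genes at each level that they hold was not counted. CELSR2, an adhesion cadherin of planar polarity, rose from 6.35, 6.18 and 6.32 to 8.81, 8.86 and 8.79 (2.54). The matrix metalloprotease MMP25 rose by 2.22, the muscle actin-binding protein XIRP1 by 2.22, the amine oxidase AOC3 by 2.11, the laminin receptor subunit ITGA7 by 2.08, the phosphodiesterase PDE4C by 2.07, the coronin CORO2A by 1.99 and the pseudogene DBIL5P by 1.94. In each of them the 3 H2O2 libraries lay above the 3 untreated libraries, as the rule for naming them required.

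The position of these genes was looked up after their values had been seen. In GENCODE v29, 68 of the 76 genes called higher with a mean value under 7 had a position by symbol, and 29 of the 68 (42.6%) started within 20 kb after the end of a gene, or inside a gene, on the same strand with a mean value of at least 9. Over all tested genes with a mean under 7 the share was 15.2%. Within the range of means from 5 to 7, it was 50% of 30 genes called higher and 16.8% of 1317 others, and from 3 to 5 it was 36.8% of 38 and 22% of 1202. CELSR2 starts 11.8 kb after SARS (mean value 12.8, difference 0.34), ITGA7 9.28 kb after CD63 (14.2, difference 0.15) and AOC3 7.43 kb after PSME3 (12.8, difference -0.05, not passed). For 1 of the 29, the upstream gene was itself called higher, where 0.655% of all tested genes were. Whether reads that run on from an upstream gene are part of these values was not tested, and the files hold no read positions.

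**Figure D4:**
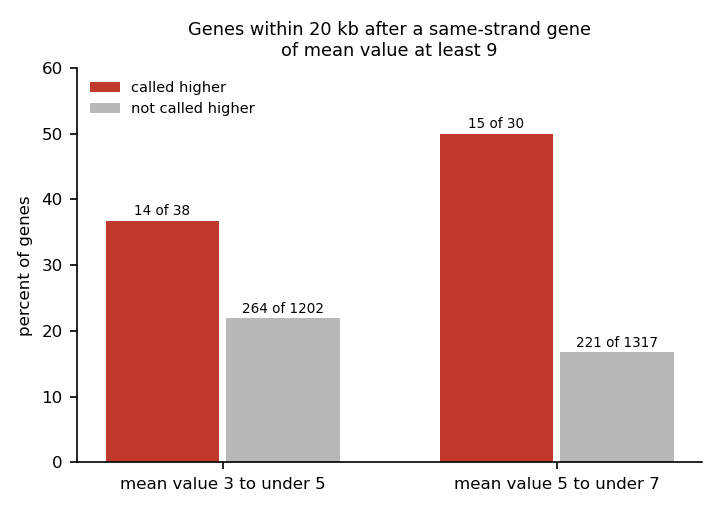
Percent of genes (vertical axis) that start within 20 kb after, or inside, a same-strand gene with a mean rLog value of at least 9, for genes called higher at 4 h of H2O2 (red) and all other tested genes (grey) in both ranges of mean value. The shares are 36.8% against 22% in the lower range and 50% against 16.8% in the upper range.

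Set against 4 h of NCS directly, without the untreated libraries, 110 genes (0.559%) were called higher in H2O2 and 3 (0.0152%) lower. FOSB (4.52), HMOX1 (2.56), CELSR2 (2.37) and MMP25 (2.21) were among the 5 largest. Of the 129 genes called higher against untreated cells, 124 were also higher than at 4 h of NCS and 95 by more than 1, and the H2O2 libraries are common to both comparisons. The 4 that were lower than at 4 h of NCS, named after their values were seen, were BTG2 (-0.43), CDKN1A (-0.37), GDF15 (-0.30) and PLK2 (-0.24), all p53 targets. Over the p53 list, 25 of 37 genes were lower in H2O2 than in NCS and 5 were higher at an adjusted p under 0.05, with a median of -0.22, where over all genes 18% were lower and 26.3% higher. MDM2 was lower by 0.77 and the mitochondrial reductase FDXR by 0.98. The genes lowest against NCS were OSR1, a zinc finger factor (-1.20), IKZF2 (-1.05) and FGD6, a guanine nucleotide exchange factor (-1.02). FDXR and EDN1, the vasoconstrictor endothelin (-0.94), came next.

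Other lists stood on the other side. Of the integrated stress response genes, 37 of 40 were higher in H2O2 than in NCS and 2 were lower, with a median of 0.64. ATF4 differed by 1.10, CHAC1 by 1.91 and HERPUD1 by 1.27. Of the AP-1 subunits 12 of 16 were higher and none was lower, with FOS 1.68 higher. Mitosis genes were lower than in untreated cells, yet 28 of 31 stood above their 4 h NCS values, with a median of 0.49, and 1, CCNF, was lower (-0.43). PLK1 differed by 0.94. Of DNA replication genes 15 of 31 were lower in H2O2 than in NCS and 1 was higher, with a median of -0.14. SLC30A1 was 1.26 above untreated cells at 4 h of NCS and 2.18 above them at 4 h of H2O2, and the direct difference was 0.92 (adjusted p = 1.55e-10, limma). The metallothioneins MT1X and MT1M differed by -0.13 each and did not pass.

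Most rises had receded by 8 h. Directly compared, 9 genes (0.0457%) were called higher at 8 h than at 4 h of H2O2 and 32 (0.162%) lower. Without H2O2 8 h replicate 2 the former count was 16. Of the 129 genes called higher at 4 h, 113 were lower at 8 h and 9 were higher, and since those genes were chosen for high values in the same 4 h libraries, these counts are a description. Their median difference from untreated cells had shrunk from 1.28 to 0.61 by 8 h and to 0.14 by 24 h, and 14 of the 129 were still more than 1 above untreated cells at 24 h. FOSB fell by 2.98 between 4 and 8 h, to 1.90 above untreated cells, and NR4A1 fell by 1.14. HSPA6 changed by -0.32 (adjusted p = 0.0559, limma), which did not pass, and its 8 h libraries were more spread (SD 0.38, n = 3).

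Some genes were higher again at 8 h. Of the 9 genes called higher at 4 h that were higher again at 8 h, 6 were on the integrated stress response list and 4 on the p53 list. GDF15 rose by a further 1.25, CHAC1 by 0.49, CDKN1A by 0.42 and SESN2 by 0.22. Of all 40 integrated stress response genes, 32 were higher at 8 h than at 4 h and 5 were lower at an adjusted p under 0.05, with a median of 0.35, where over all genes 18% were higher and 27.7% lower. Of 33 NRF2 targets, 19 were higher at 8 h than at 4 h and 4 were lower, with a median of 0.15. TXNRD1 rose by a further 0.74 and SRXN1 by 0.45. The 3 members called at 4 h were among those that fell, HMOX1 by 0.94, ABCC2 by 0.91 and MAFG by 0.60. Of the mitosis genes 29 of 31 were lower at 8 h than at 4 h, with a median of -0.56, and PLK1 fell by 1.00. CCNF was the member that was higher at 8 h, by 0.34.

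**Figure D5:**
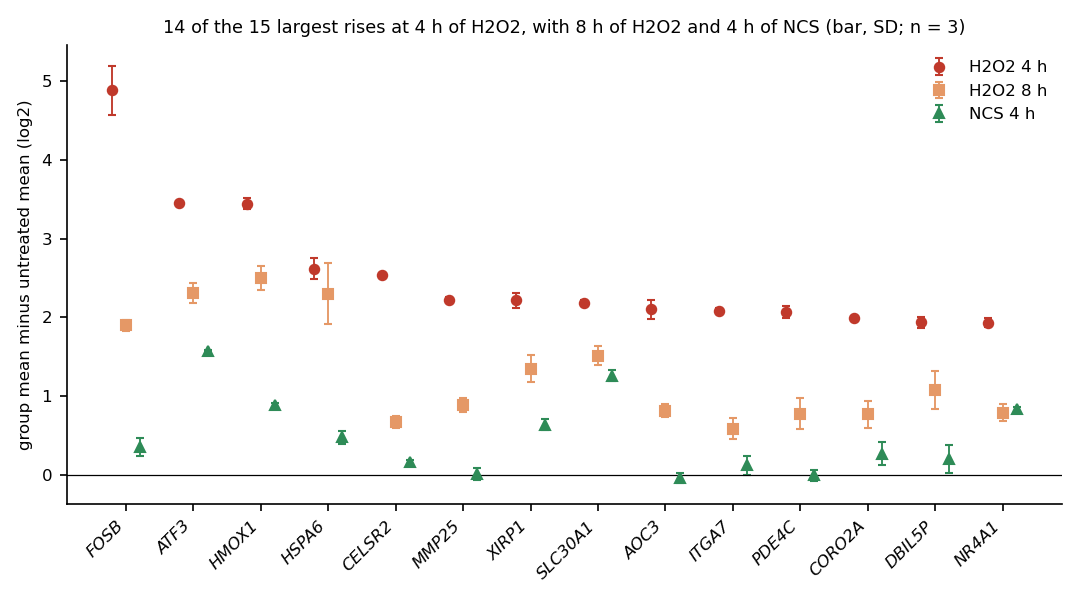
Group mean minus the untreated mean (vertical axis, log2) of 14 of the 15 genes with the largest rises at 4 h of H2O2 (circles), with 8 h of H2O2 (squares) and 4 h of NCS (triangles); bars show the SD of the 3 libraries of the treated group. All 14 circles lie above the triangles, and the 8 h squares lie below the circles, for HSPA6 by less than the spread of its 8 h libraries.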

How the data were processed

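RNA of 21 libraries, 7 groups of 3 biological replicates, was sequenced after TruSeq Stranded mRNA preparation. Alignment was by HISAT2 and counting by HTSeq, which the authors ran in Galaxy, and the submitters' processing notes name build hg19. The deposited values are log2-scaled rLog values that the authors made with DESeq2 from counts of all libraries. They shrink differences of low genes and hold no counts, so depth is unknown and no count test or detection floor could be computed. The exact intervals given for promoters cover counting error only. The strand setting of the counting and tool versions are not given in the sources used here.

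Of 23368 genes listed, 19694 with values that vary were tested. In the gene names, 28 had become dates and 2 were listed more than once. limma 3.58.1 in R 4.3.3 fitted all 7 groups at once with a mean-variance trend and no further normalization, with Benjamini-Hochberg adjustment over all 19694 genes. Called genes had an adjusted p under 0.05 and a log2 difference beyond 1 in either direction. Lists are described by counts and medians without a set test. The fit was tested on simulated data. The labels call the replicates biological but do not say whether cultures were grown or treated on separate days, so p-values measure only the spread between these libraries.

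The comparisons, members and lists were chosen with earlier results of these data known. The rule named the 15 largest rises and the 8 largest falls among called genes whose libraries did not overlap. From each list it named up to 4 rises and 2 falls past the test with a mean value of at least 5, and the first 3 members. The rule also named the 5 largest differences each way in the comparisons with NCS 4 h and with H2O2 8 h. GCLM, NQO1, GCLC, JUN, ASNS, MT2A, PLK2, the upstream genes and the cell type markers are named beyond it, chosen after their values were seen. Some genes that the rule names are not reported here. Promoters came from RefSeq (GRCh38.p14) and gene order from GENCODE v29 (GRCh38), so no coordinates of the authors' build are given. Figures used Python 3.11.15 with matplotlib 3.10.9. The alternatives were quantile normalization, aligned medians, only genes averaging at least 5, a difference over 0.58, the adjusted p alone, no trend, only the groups compared, a replicate block, each library left out, and promoters from 100 bases before the start.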

Additional observations from a re-analysis of the deposited data

Results flagged for a closer look

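The effect of H2O2 at 8 h differed from that at 4 h for 9 genes called higher and 32 called lower in the direct limma comparison of both times, and the former count was 16 without H2O2 8 h replicate 2. The 5 genes that gained most between 4 and 8 h were UNC5B, a netrin receptor (1.32), GDF15 (1.25), MKNK2, a kinase of the translation factor eIF4E (1.21), SLC6A9 (1.19) and ZNF788 (1.16). They differed in where they stood at 4 h, when UNC5B, GDF15 and SLC6A9 were already 0.65, 1.73 and 0.53 above untreated cells, MKNK2 had a difference of 0.12 that did not pass (adjusted p = 0.27, limma) and ZNF788 had a difference of -0.78. The 5 that lost most were FOSB (-2.98), CELSR2 (-1.86), PPP1R10, a subunit that targets protein phosphatase 1 to the nucleus (-1.67), ITGA7 (-1.49) and BHLHE40 (-1.42). PPP1R10 had been 1.32 above untreated cells at 4 h and was at -0.35 at 8 h. The cause was not tested.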

How the results depend on the processing

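Depth is unknown and the values are shrunk, so differences of low genes are understated. The smallest exact p for 3 libraries against 3 is 0.1. The counts of called genes depended most on the threshold. At a difference over 0.58, 444 genes were called higher and 130 lower than in untreated cells, 421 and 96 against NCS 4 h, and 194 and 245 at 8 h against 4 h. With the adjusted p alone these were 5165 and 3874, 5184 and 3554, and 3548 and 5461. With a mean value of at least 5, 2700 genes passed the adjusted p upwards and 69 were called higher than at NCS 4 h. AP-1 sites fell to 3.57% of called promoters in the shorter window.

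Of 37 list medians, those of marker lists included, 12 moved by more than the replicate spread with library medians aligned, 17 after quantile normalization and 14 with a mean value of at least 5. With medians aligned those outside the marker lists were 0.383 for MAPK feedback, 0.111 for NRF2, 0.0756 for NF-kB, 0.0013 for histones, -0.0099 for developmental factors, -0.0755 for arrestins, 0.0513 for autophagy and -0.179 for collagens. After quantile normalization they were 0.379 for MAPK feedback, 0.154 for NRF2, 0.085 for zinc, 0.00895 for NF-kB, -0.0261 for histones, -0.117 for developmental factors, -0.0425 for arrestins, 0.178 for hypoxia, -0.0931 for collagens, -0.0815 for interferon, 0.025 for clock, 0.0076 for base excision repair and 0.0245 for reference genes. With a mean value of at least 5 they were 0.472 for MAPK feedback, 0.342 for EGF ligands, 0.185 for NRF2, 0.14 for NF-kB, 0.186 for BCL2, 0.0621 for histones, -0.146 for developmental factors, 0.248 for hypoxia, -0.111 for interferon, 0.153 for clock and 0.346 for noncoding RNAs, and acinar and islet markers gave no value.

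Leaving out each library in turn gave 124 to 131 genes called higher and 7 to 10 lower, 106 to 113 higher than NCS 4 h, and 7 to 16 higher and 30 to 34 lower at 8 h. Medians ranged from -0.12 to -0.0807 for replication, 0.39 to 0.414 for MAPK feedback, 0.071 to 0.0999 for NF-kB, 0.128 to 0.145 for NRF2, -0.195 to -0.175 for YAP, 0.0568 to 0.0758 for autophagy, -0.0505 to -0.0088 for base excision repair, 0.0085 to 0.0222 for histones, -0.174 to -0.147 for collagens, 0.332 to 0.373 for early-response genes, 0.072 to 0.124 for heat shock, 0.193 to 0.237 for hypoxia, 0.542 to 0.602 for the integrated stress response, 0.284 to 0.328 for noncoding RNAs, -0.0169 to 0.0343 for mRNA decay, 0.0843 to 0.148 for zinc and 0.477 to 0.588 for p53.

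Of 222 named genes, 28 lost or gained the test in some alternative and 7 changed sign, all of them with differences near 0. With medians aligned MEOX1 was at -0.013, and after quantile normalization HMGCS1 was at 0.0144, MT1A at -0.0605 and TBP at 0.0034. Leaving out each library in turn, HMGCS1 ranged from -0.0585 to 0.0504, MEOX1 from -0.0021 to 0.0038, MUTYH from -0.0989 to 0.0217, OGG1 from -0.0039 to 0.0797 and SRSF1 from -0.0328 to 0.0122. The cause was not tested.

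Same-numbered replicates did not deviate together, with correlations of 0.0332, -0.0584 and -0.021 between untreated and H2O2 4 h libraries. With the replicate block, 129 genes were called higher and 8 lower, 5218 and 3926 passed the adjusted p, and the other comparisons gave 110 and 3, and 9 and 32. MT1E and ACTB passed the test in that fit.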

Other observations

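Other gene groups are given with the shares of their members, against 26.2% higher and 19.7% lower over all genes. Those shares differ with the level of the genes, and the groups were not matched for it. Of 16 circadian clock genes, 8 were higher at 4 h of H2O2 than in untreated cells (50%) and 4 were lower (25%), with a median of 0.064 that was 0.0388 without H2O2 replicate 3 and 0.025 after quantile normalization. The repressor BHLHE40 rose by 1.89, from 10.36, 10.12 and 10.18 to 12.14, 12.02 and 12.16, PER2 by 0.40 and RORA by 0.39, while CRY2 fell by 0.45 and PER3 by 0.28. Of 18 long noncoding RNAs, 14 were higher (77.8%) and 2 were lower (11.1%), with a median of 0.30. MIR210HG, KCNQ1OT1 and SNHG7 rose by 0.74, 0.72 and 0.65, and NEAT1 fell by 0.35. Of 20 interferon-stimulated genes, 1 was higher (5%) and 7 were lower (35%). IFIT1 and IFIT3 fell by 0.44 and 0.42, and ISG15 rose by 0.17 but did not pass without untreated replicate 1 or 3 or without H2O2 replicate 1.

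Of 23 sterol and fatty acid synthesis genes, 4 were higher and 4 were lower (17.4% each), and 19 were lower at 8 h than at 4 h (27.7% over all genes), with a median between both times of -0.25. FASN and ACACA fell by 0.25 and 0.30 at 4 h. Among SR splicing factors and CLK kinases, 4 of 20 were higher (20%) and 5 were lower (25%), near the shares of all genes, with CLK1 at 0.46 and CLK2 at -0.49. Of 12 genes often used as references, 6 were higher (50%) and 1 was lower (8.33%). GAPDH rose by 0.13, and ACTB had a difference of -0.05 (adjusted p = 0.087, limma).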
